A study of Mus musculus with 34 samples.

Results

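The glycolysis and hypoxia genes described here are 35 genes that carry glucose to lactate or belong to the cellular response to low oxygen. They were chosen as a named list, with the condition that each gene be present in both deposited count tables, and all 35 were found among the 53655 genes of those tables. All 35 also passed the filter on low counts in each comparison. Glycolysis splits glucose into pyruvate in the cytosol, with a preparatory phase that spends ATP and a payoff phase that returns it, and lactate dehydrogenase then turns pyruvate into lactate. Hypoxia-inducible factor (HIF), whose alpha subunit is marked for destruction by oxygen-dependent prolyl hydroxylases, switches on many of these same genes when oxygen is low. Primed pluripotent cells are known for a strongly glycolytic metabolism.

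RNA was sequenced from mouse EpiSC (epiblast stem cells, which are pluripotent and primed to differentiate) and from definitive endoderm (DE, the precursor of gut, liver and pancreas) made from the same lines, with 17 libraries of each. The inbred strains were C57BL/6J (5 lines in EpiSC and 5 in DE), PWK/PhJ (3 and 4), WSB/EiJ, NZO/HiLtJ and NOD/ShiLtJ (each 2 and 2), CAST/EiJ (2 and 1) and DBA/2J (1 and 1), and no line carried a labelled transgene or engineered allele. EpiSC were kept in N2B27 medium on irradiated mouse embryonic fibroblasts with FGF at 12.5 ng/mL, activin A at 20 ng/mL and the tankyrase inhibitor NVP-TNKS656 at 175 nM. For DE, cells on laminin in a chemically defined medium with insulin at 0.7 ug/mL received 3 uM of the GSK3 inhibitor CHIR and 40 ng/mL activin A for 16 h, then 100 nM LDN-193189, which blocks BMP receptors, with activin A at 100 ng/mL for 24 h, and cells bearing CXCR4 were pulled out with magnetic beads. Each library is a separate cell line of its strain, so the spread within a strain is a spread between lines, and oxygen tension is not given in the sources used here.

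Depth ran from 25584647 to 33831684 counts in EpiSC and from 23772045 to 67722013 counts in DE. EpiSC libraries came from a stranded polyA kit and DE libraries from a low-input amplification kit, so cell type, medium, sorting and kit change together and cannot be told apart. In bulk RNA, fewer cells of a type and less RNA per cell also cannot be told apart. The endoderm markers (6 of 6 higher in DE) summed to between 1219 and 12933 CPM (counts per 1e6 counts in genes, after TMM scaling) in DE and between 31.8 and 1169 CPM in EpiSC, while 3 of 5 EpiSC markers and 14 of 15 fibroblast markers were lower in DE. The remaining EpiSC markers, Fgf5 (log2 fold 2.46) and Otx2 (1.96), were higher in DE, as was the fibroblast marker Pdgfra (2.2). EpiSC markers summed to a median of 2153 CPM in DE and 1185 CPM in EpiSC. Some libraries stood apart: both NOD/ShiLtJ DE libraries held 1635 and 1923 CPM of fibroblast markers against 159.2 to 413.2 CPM in C57BL/6J DE (up to 4 of 15 markers at 0), and C57BL/6J line 2 differed from the other lines of its strain at a copy of Eno1 described further on. The 35 genes took 1.27% to 2.18% of all counts in EpiSC (median 1.68%) and 1.84% to 3.94% in DE (median 2.92%).

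The promoters of these genes often hold the core letters of the hypoxia response element, to which HIF is known to bind, which is why a few are printed. Windows from 250 bases before to 50 bases after each RefSeq start (build GRCm38.p6) were searched for ACGTG and GCGTG on both strands, which read as CACGT and CACGC when the match lies on the other strand; the letters CACGTG hold an overlapping match on each strand. Of the 34 genes with a window, 31 (91.2%) held at least 1 match, against 46.7% of 27025 genes in the same table. By window, 81.2% of 48 windows of these genes and 43.8% of all 32851 windows held a match. Shares at matched base composition were not computed, and a match describes letters in the reference C57BL/6J genome, not a bound site or the sequence of another strain. Genes that were not called lower in PWK/PhJ EpiSC held matches too, among them Hk1 and Pdk3. The 4 windows below belong to genes that were lower in PWK/PhJ EpiSC, as described further on, and capitals mark the matches: Ldha at chr7:46845554-46845853 (plus strand, 7 matches), Pgk1 at chrX:106186850-106187149 (plus strand, 2 matches), Gapdh at chr6:125165724-125166023 (minus strand, 3 matches) and Slc16a3 at chr11:120948817-120949116 (plus strand, 2 matches).
Ldha: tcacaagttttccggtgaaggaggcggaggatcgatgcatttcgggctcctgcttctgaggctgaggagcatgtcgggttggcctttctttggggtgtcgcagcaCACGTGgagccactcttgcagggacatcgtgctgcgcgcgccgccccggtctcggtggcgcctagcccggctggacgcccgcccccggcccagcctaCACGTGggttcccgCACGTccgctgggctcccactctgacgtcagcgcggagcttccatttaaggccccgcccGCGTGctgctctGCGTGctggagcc
Pgk1: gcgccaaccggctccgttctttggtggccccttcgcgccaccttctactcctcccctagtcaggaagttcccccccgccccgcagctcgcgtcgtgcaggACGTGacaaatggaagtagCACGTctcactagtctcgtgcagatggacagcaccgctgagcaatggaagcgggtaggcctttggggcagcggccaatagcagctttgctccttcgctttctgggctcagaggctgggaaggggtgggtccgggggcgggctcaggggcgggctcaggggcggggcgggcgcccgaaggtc
Gapdh: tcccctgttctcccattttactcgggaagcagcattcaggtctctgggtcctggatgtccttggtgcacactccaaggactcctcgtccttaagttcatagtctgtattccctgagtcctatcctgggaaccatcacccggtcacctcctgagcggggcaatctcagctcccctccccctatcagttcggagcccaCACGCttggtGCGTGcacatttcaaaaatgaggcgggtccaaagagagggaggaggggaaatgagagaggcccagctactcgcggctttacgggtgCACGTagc
Slc16a3: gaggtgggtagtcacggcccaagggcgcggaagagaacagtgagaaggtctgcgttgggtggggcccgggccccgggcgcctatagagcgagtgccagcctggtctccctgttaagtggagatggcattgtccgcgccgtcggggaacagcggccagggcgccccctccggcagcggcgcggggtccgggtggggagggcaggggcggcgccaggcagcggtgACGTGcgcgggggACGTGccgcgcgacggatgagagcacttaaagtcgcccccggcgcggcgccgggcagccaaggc

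Levels per kilobase of exon (RPKM, from the union of GENCODE M21 exons) placed Pkm, Ldha, Gapdh and Eno1 at the top of the list in both cell types. In EpiSC the order began with Pkm, the muscle-type pyruvate kinase, at 729.2 ± 96.1 RPKM (SD, n = 17), then Ldha at 624.4 ± 179.4, Gapdh at 612.5 ± 171.0, Eno1 at 445.8 ± 112.3, Aldoa at 397.2 ± 62.2 and Pgk1 at 354.6 ± 94.2. The mean ± SD of each gene overlapped that of the next in this order. In DE, Ldha led at 1768 ± 609.1 RPKM (SD, n = 17), followed by Pkm at 971.2 ± 198.7, Eno1 at 749.4 ± 288.2 and Gapdh at 644.3 ± 218.9. Hkdc1, a hexokinase-like gene, was lowest in EpiSC at 0.199 ± 0.264 RPKM, and Eno2, the neuronal enolase, had the lowest median in DE at 1.16 RPKM.

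**Figure D1:**
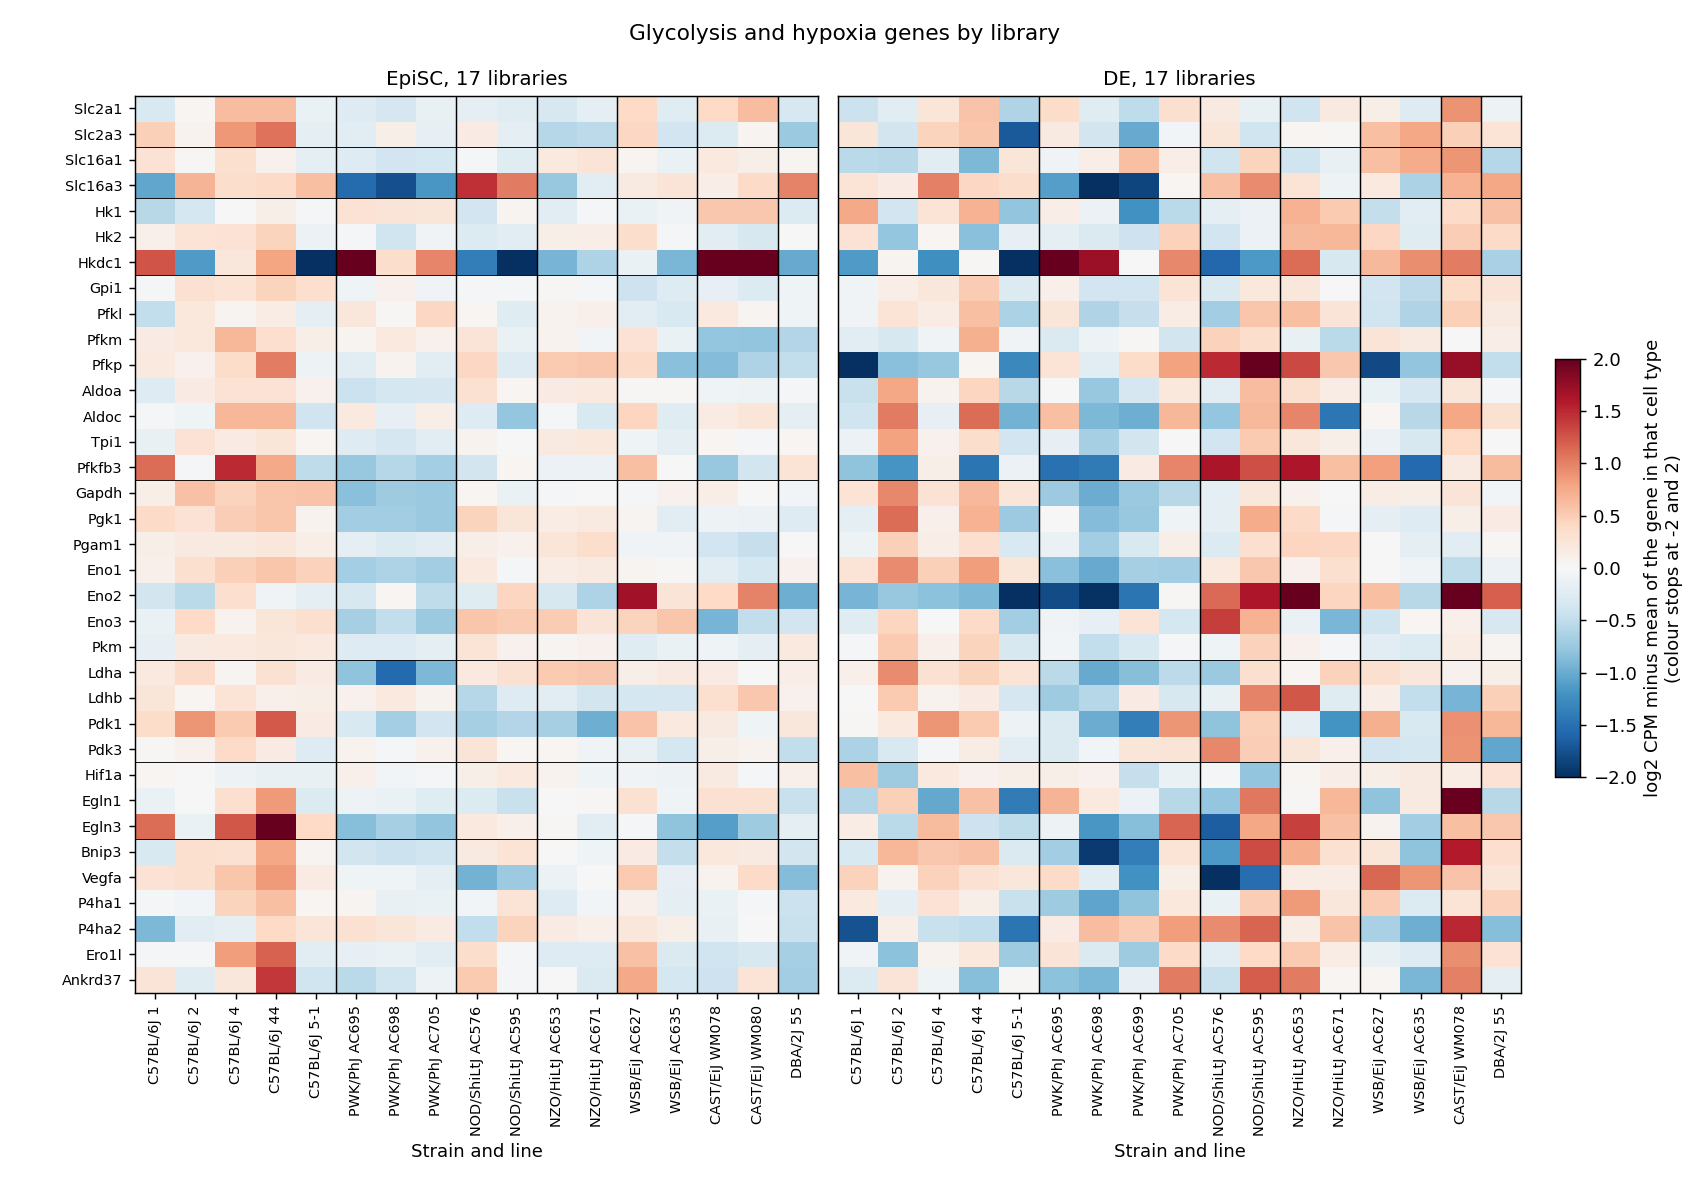
Each cell is the log2 CPM of a gene in a library minus that gene's mean over the 17 libraries of the same cell type, for EpiSC on the left and DE on the right; black lines separate strains and the roles of the genes, and colour stops at -2 and 2. The 3 PWK/PhJ EpiSC columns are blue for Gapdh, Pgk1, Eno1 and Ldha, and C57BL/6J line 44 is red in EpiSC for Slc2a3, Egln3 and Vegfa.

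The comparison of DE with EpiSC asked how these genes differ between endoderm and the stem cells it came from. DE held more mRNA of the glucose and lactate transporters, of both lactate dehydrogenases and of several hypoxia targets, with less Hk2, Pfkm and Pfkp and more Hk1 and Pfkl. With edgeR (quasi-likelihood F test, Benjamini-Hochberg adjusted p under 0.05), 26 of 35 genes differed, 21 higher and 5 lower in DE. Among all 20907 genes tested 77.2% differed, 37.3% higher and 39.9% lower, so a share of 26 in 35 is near the background. The median log2 fold of the 35 genes was 0.57, against -0.06 over all genes tested.

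Both glucose transporters rose. Slc2a3, which encodes the high-affinity transporter GLUT3 (chromosome 6, 122727809 to 122801640), had a lowest value of 254.9, a median of 376.8 and a highest of 902.4 CPM in EpiSC, and 958.7, 3471 and 5203 CPM in DE. No DE library fell into the EpiSC range, and the log2 fold was 2.91 ± 0.19 (SE; edgeR adjusted p = 6.73e-15). Slc2a1 (GLUT1) went from 196.7, 218.3 and 381.5 CPM (lowest, median and highest) to 540.8, 764.8 and 1542 CPM, again without overlap, with a log2 fold of 1.79 ± 0.12. The lactate and proton carriers Slc16a1 (MCT1) and Slc16a3 (MCT4) rose by smaller amounts, 0.68 ± 0.13 and 0.98 ± 0.17 on the log2 scale, each in 14 of 16 lines with both libraries.

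Hexokinases, which trap glucose as glucose 6-phosphate, moved in opposite directions and ended at similar levels. Hk2, the inducible form, had 230.8, 295.2 and 416.4 CPM (lowest, median and highest) in EpiSC and 45.7, 75.4 and 129.4 CPM in DE, and its log2 fold was -1.86 ± 0.12 (edgeR adjusted p = 6.5e-15), with all 16 lines lower. Hk1, the widely expressed form, rose from 50.12 ± 10.98 to 118.6 ± 43.91 CPM (SD, n = 17 and 17), a log2 fold of 1.25 ± 0.15, in 16 of 16 lines. Within each library the log2 ratio of Hk2 to Hk1 was therefore 2.69 ± 0.43 in EpiSC and -0.48 ± 0.58 in DE (SD, n = 16 lines), with no overlap. Per kilobase, Hk2 went from 51.8 ± 9.03 to 14.4 ± 4.54 RPKM and Hk1 from 5.87 ± 1.29 to 13.9 ± 5.15 RPKM (SD, n = 17 and 17), so that their levels in DE overlapped. The paired difference of the ratio was -3.17 (SD 0.81; exact sign-flip permutation test, two-sided, p = 3.05e-05, the smallest this test can give, and 0.000183 after adjustment over 18 ratio tests). Hkdc1 rose from 498 counts summed over the 17 EpiSC libraries to 32972 over the 17 DE libraries, a log2 fold of 6.24 ± 0.44, and it ran from 3.95 to 278.5 CPM among DE libraries.

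In the preparatory phase, 4 genes rose and 3 fell of 8. The liver-type phosphofructokinase Pfkl rose (0.91 ± 0.12), while the muscle type Pfkm (-1.47 ± 0.11) and the platelet type Pfkp (-1.56 ± 0.30) fell, as did Pfkfb3 (-1.22 ± 0.32), whose product makes the activator fructose 2,6-bisphosphate. Pfkl had the highest level of the 3 phosphofructokinases in both cell types, at 68.5 ± 10.6 RPKM in EpiSC and 129.4 ± 39.8 RPKM in DE (SD, n = 17). Pfkp was lower in 14 of 16 lines, since it was higher in DE in 2, and Pfkfb3 was higher in DE in 3 of 16. The log2 ratio of Pfkp to Pfkl went from -3.02 ± 0.54 to -5.60 ± 1.16 (SD, n = 16), a paired difference of -2.59 in 16 of 16 lines (exact sign-flip permutation test, adjusted p = 0.000183). Triose phosphate isomerase Tpi1 rose by 0.89 ± 0.09, aldolase Aldoa by 0.40 ± 0.10 and its paralog Aldoc by 0.57 ± 0.22. Gpi1, glucose 6-phosphate isomerase, was at 0.16 ± 0.08 (edgeR adjusted p = 0.072). The Aldoc call ended when both libraries of C57BL/6J line 2 were left out (0.46, edgeR adjusted p = 0.0621).

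The payoff phase moved unevenly, with 4 of 7 genes higher and 1 lower. Phosphoglycerate mutase Pgam1 rose by 0.99 ± 0.07, Eno1 by 0.72 ± 0.07, Pkm by 0.42 ± 0.07 and the muscle enolase Eno3 by 0.42 ± 0.14. Pgk1, phosphoglycerate kinase, fell from 795.7 ± 211.4 to 489.6 ± 193.0 CPM (SD, n = 17 and 17), a log2 fold of -0.65 ± 0.12, and was higher in DE in 1 of 16 lines. Gapdh, at 2531 ± 706.6 CPM in EpiSC and 2663 ± 904.6 CPM in DE, had a log2 fold of 0.11 ± 0.06 (edgeR adjusted p = 0.114), and Eno2 one of -0.22 ± 0.37. With the cell line as a replicate block the Eno3 call was lost (0.35, edgeR adjusted p = 0.0508).

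At the pyruvate branch both lactate dehydrogenase subunits rose to a similar degree. Ldha, the subunit that favours lactate formation (chromosome 7, 46841475 to 46855627), had a lowest value of 668.0, a median of 2191 and a highest of 2834 CPM in EpiSC, and 2735, 5981 and 10622 CPM in DE. All 16 lines with both libraries had more of it as DE, with a log2 fold of 1.57 ± 0.10 (edgeR adjusted p = 2.93e-15), although the ranges touched through PWK/PhJ DE. Ldhb, the heart-type subunit, rose from 58.9 ± 11.89 to 209.1 ± 93.91 CPM with no overlap, a log2 fold of 1.82 ± 0.17. The log2 ratio of Ldha to Ldhb differed by -0.22 between cell types, less than the SD of 0.92 over the 16 lines (exact sign-flip permutation test, adjusted p = 0.473). Pdk1 (-0.06 ± 0.18) and Pdk3 (-0.04 ± 0.10), kinases that hold back pyruvate dehydrogenase, did not pass the test.

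Members of the HIF pathway and its other targets gave a mixed picture. Hif1a itself was at 215.0 ± 16.76 CPM in EpiSC and 221.9 ± 48.78 CPM in DE, with a log2 fold of 0.05 ± 0.09 that did not pass the test. Egln1, the main prolyl hydroxylase, rose by 1.45 ± 0.21, whereas Egln3, another of that family, was at 0.48 ± 0.30 (edgeR adjusted p = 0.145). Bnip3, a mitophagy receptor, rose by 1.54 ± 0.20, the growth factor gene Vegfa by 1.18 ± 0.14, Ankrd37 by 1.14 ± 0.24 and the collagen prolyl hydroxylase subunit P4ha1 by 0.69 ± 0.13. P4ha2 (0.04 ± 0.20) and Ero1l, an oxidase of the endoplasmic reticulum (0.10 ± 0.17), did not pass.

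**Figure D2:**
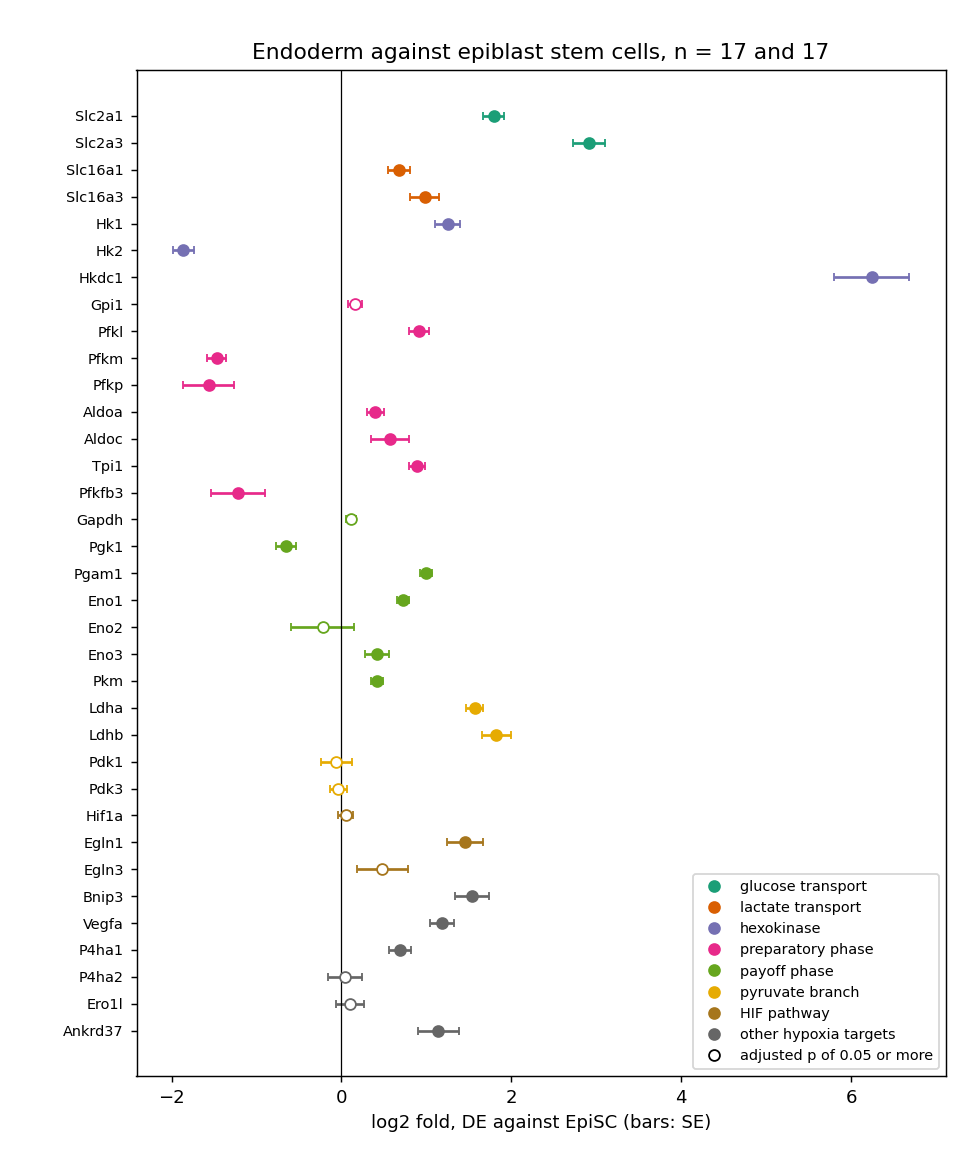
Points are log2 folds of DE against EpiSC from edgeR for the 35 genes, with bars of 1 SE, coloured by role; open points have an adjusted p of 0.05 or more. Hkdc1 at 6.24 and Slc2a3 at 2.91 lie farthest to the right, and Hk2, Pfkp, Pfkm, Pfkfb3 and Pgk1 lie to the left of 0.

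**Figure D3:**
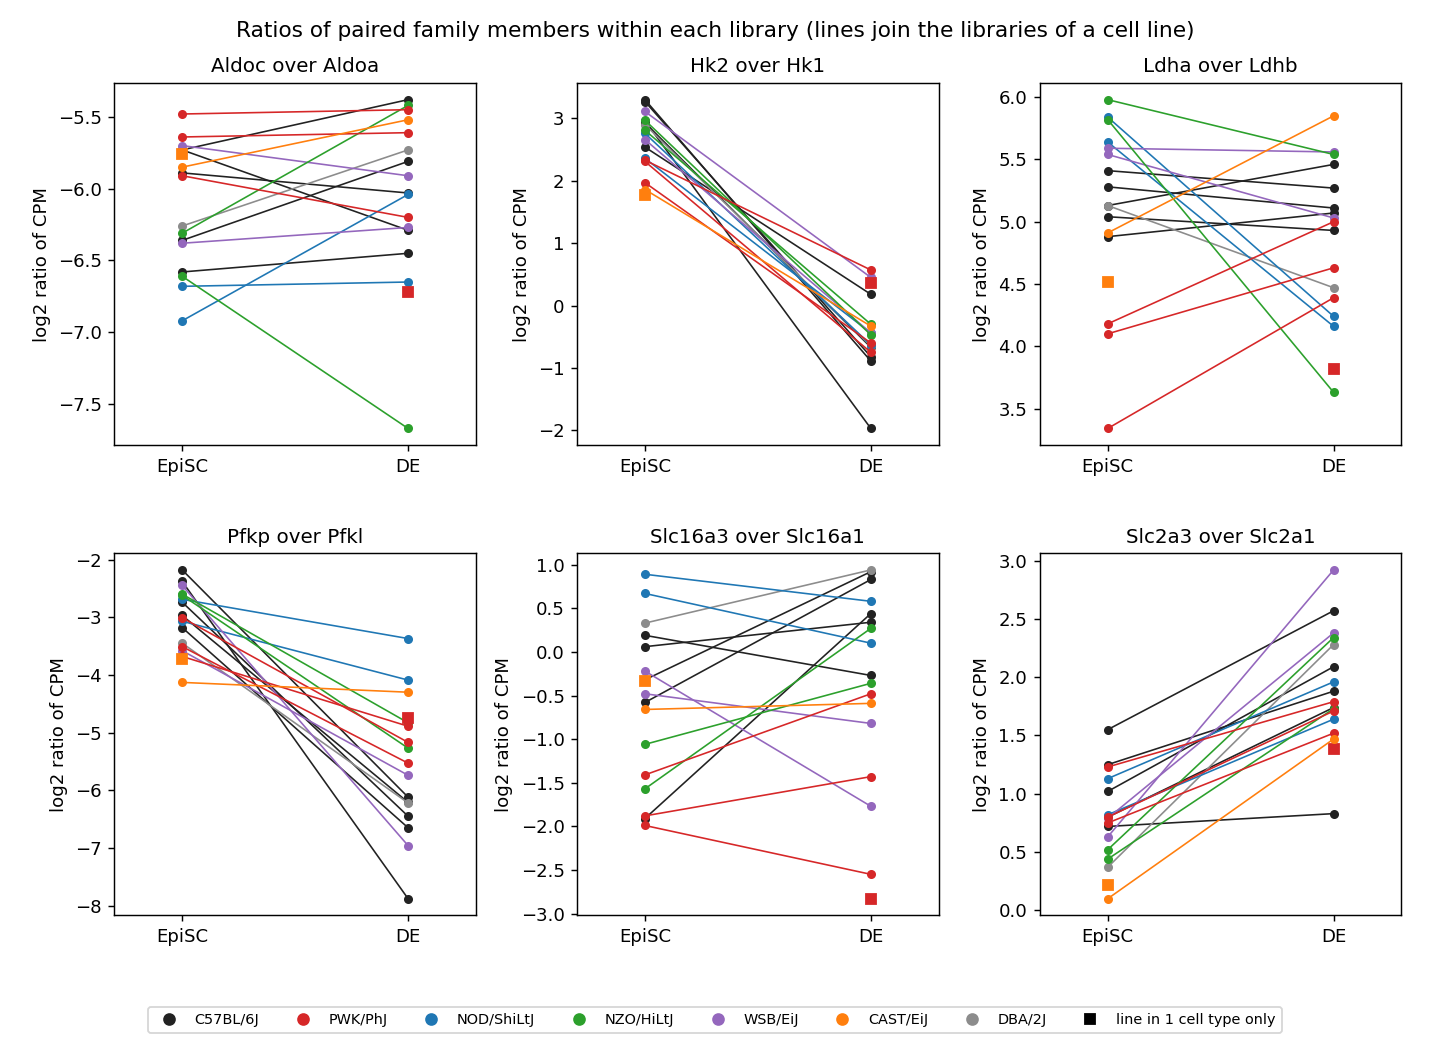
Each point is the log2 ratio of CPM of 2 family members within a library, coloured by strain, and lines join the EpiSC and DE libraries of a cell line; squares are lines seen in 1 cell type. The Hk2 to Hk1 and Pfkp to Pfkl ratios were lower in DE in 16 of 16 lines, the Slc2a3 to Slc2a1 ratio was higher in 16 of 16, and the lines of the other 3 ratios cross.

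Related pathways changed in both directions, as did all genes tested, of which 37.3% were higher and 39.9% lower in DE. Genes named here had the largest called log2 folds of their list at a mean log2 CPM of at least 3. That limit left out larger called falls, such as Pklr (-4.94 ± 0.61) and the pentose phosphate gene Rpia (-1.67 ± 0.16). Of 22 other glycolysis genes 18 were tested, with 7 higher and 9 lower in DE. Those named are phosphoglucomutase Pgm2 (2.27 ± 0.17) and the ADP-dependent glucokinase Adpgk (-0.85 ± 0.10). Of 8 pentose phosphate genes, 5 were higher and 3 lower, with Pgls, the lactonase of that pathway, at 2.10 ± 0.11 and H6pd at -0.50 ± 0.14. Of 12 genes of mitochondrial pyruvate use, 7 were higher and 2 lower, with the pyruvate carrier subunit Mpc2 at 1.64 ± 0.12 and the phosphatase Pdp2 at -0.64 ± 0.12. The mitochondrial carboxykinase Pck2 fell by 2.32 ± 0.18 and G6pc3 rose by 1.22 ± 0.13, out of 5 gluconeogenesis genes of which 3 were tested. Of 7 other HIF pathway genes, 3 were higher and 4 lower, with the hydroxylase Egln2 at 1.23 ± 0.09 and the dimer partner Arnt2 at -3.15 ± 0.16. Of 19 other hypoxia targets, 7 were higher and 9 lower, with Mxi1 at 1.72 ± 0.16 and Loxl2 at -2.18 ± 0.26. The median log2 fold of those 19 targets was -0.86, against 0.91 for the 6 hypoxia targets among the 35 genes and -0.06 over all genes tested. Fibroblast markers summed to a median of 2056 CPM in EpiSC and 334.6 CPM in DE. That level was not a covariate in this contrast, and its part in these folds was not tested.

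Strain was then compared within each cell type against C57BL/6J, the same 5 libraries serving as the reference for each strain, so the strain comparisons share their controls. The submitters' notes name the build mm10, which is the C57BL/6J reference. How far sequence differences of the other strains from that reference changed their counts was not tested. PWK/PhJ, a wild-derived strain of Mus musculus musculus, had the most of these genes past the threshold in EpiSC, among 5 strains compared with unequal numbers of lines. Its lines had lower CPM of Ldha, Gapdh, Pgk1, Eno1, Slc16a3, Pdk1 and Egln3. In EpiSC 18 of 35 genes passed the edgeR test, 1 higher and 17 lower, where 29.8% of 17868 genes tested passed, 13.7% higher and 16.1% lower. The libraries of the strains did not overlap for 16 genes that were lower and 1 that was higher, where 18.7% and 15.3% of all genes tested did not overlap. The median log2 fold was -0.41, against -0.01 over all genes tested, and the 35 genes took 1.283% ± 0.02309 of counts in PWK/PhJ (SD, n = 3) and 1.948% ± 0.1934 in C57BL/6J (SD, n = 5).

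The payoff phase was lower in 6 of 7 genes. Gapdh (chromosome 6, 125161715 to 125166467), the dehydrogenase that opens this phase, was at 1369, 1487 and 1461 CPM in the PWK/PhJ lines AC695, AC698 and AC705, and at 2621, 3653, 3320, 3595 and 3610 CPM in C57BL/6J lines 1, 2, 4, 44 and 5-1. The highest PWK/PhJ line lay well under the lowest C57BL/6J line, and the log2 fold was -1.19 ± 0.10 (SE; edgeR adjusted p = 1.1e-06). Pgk1 was at 471.2, 471.6 and 459.0 CPM in PWK/PhJ and at 1004, 937.5, 1076, 1131 and 807.2 CPM in C57BL/6J, in the same order of lines, a log2 fold of -1.05 ± 0.10. Eno1 was at 1447, 1508 and 1434 CPM against 2496, 2906, 3204, 3391 and 3197 CPM, a log2 fold of -1.02 ± 0.09. Eno3 (-0.79 ± 0.14), Pgam1 (-0.36 ± 0.05) and Pkm (-0.33 ± 0.08) were lower by less, and Eno2 (-0.08 ± 0.30) did not pass the test.

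The mRNA of Ldha and of the lactate carriers Slc16a3 and Slc16a1 was lower too. Ldha was at 1114, 668.0 and 1047 CPM in the PWK/PhJ lines and at 2243, 2552, 2036, 2420 and 2191 CPM in C57BL/6J, a log2 fold of -1.25 ± 0.14 (edgeR adjusted p = 1.41e-05), with line AC698 the lowest of all 17 EpiSC libraries. Ldhb, at 61.4, 66.1 and 60.8 CPM against 59.8 to 69.3 CPM, had a log2 fold of -0.00 ± 0.08 and did not pass the test. The log2 ratio of Ldha to Ldhb was 3.87 ± 0.47 in PWK/PhJ and 5.15 ± 0.21 in C57BL/6J without overlap (exact permutation test, two-sided, p = 0.0357, the smallest possible with 3 against 5, and 0.0804 after adjustment, which does not pass). Slc16a3 was at 59.0, 50.0 and 75.8 CPM against 83.4, 273.6, 216.3, 220.5 and 260.1 CPM, a log2 fold of -1.74 ± 0.33, and C57BL/6J line 1 lay nearest to the PWK/PhJ lines. Slc16a1 (-0.41 ± 0.10) was also lower.

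The other genes of the list gave mixed results. Neither glucose transporter passed the test (Slc2a1 -0.43 ± 0.21, Slc2a3 -0.59 ± 0.27), and Hk1 was the gene that was higher (0.44 ± 0.14). Pfkfb3 (-1.38 ± 0.38), Aldoa (-0.47 ± 0.11), Tpi1 (-0.36 ± 0.09) and Gpi1 (-0.26 ± 0.09) were lower. Pdk1 was at 48.3, 37.0 and 45.6 CPM against 66.1 to 138.1 CPM, a log2 fold of -1.09 ± 0.21, whereas Pdk3 (-0.01 ± 0.12) did not pass. Egln3 was at 8.12, 9.24 and 8.43 CPM against 13.4 to 75.4 CPM (-1.99 ± 0.46), and Bnip3 (-0.64 ± 0.20) and Vegfa (-0.54 ± 0.17) were lower. The calls for Bnip3, Vegfa, Gpi1 and Hk1 were each lost without any 1 of the 3 PWK/PhJ lines, those for Vegfa and Gpi1 also without C57BL/6J line 4 or 44, and that for Gpi1 also without line 2 or 5-1. Pfkfb3 was lost without AC695 or AC705, and Pkm and Tpi1 without AC698. Hk2, Hkdc1, Pfkl, Pfkm, Pfkp and Aldoc did not pass, with log2 folds from -0.45 to 1.21. Hif1a (0.11 ± 0.07), Egln1, P4ha1, P4ha2, Ero1l and Ankrd37 did not pass, with log2 folds from -0.74 to 0.34.

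Fibroblast markers summed to between 3069 and 4174 CPM in PWK/PhJ EpiSC and between 158.8 and 3851 CPM in C57BL/6J, with none of the 15 at 0 and none past the edgeR threshold (median log2 fold 1.24). The 4 Y-linked genes summed to 237.2 to 301.5 CPM in PWK/PhJ EpiSC and 42.2 to 225.5 CPM in C57BL/6J EpiSC. These ranges did not overlap, so a covariate of that level cannot be fully told apart from strain. With the fibroblast level as a covariate 15 genes passed, and the calls for Slc16a1 (-0.22), Hk1 (0.23), Pfkfb3 (-0.78) and Vegfa (-0.52) were lost. With the Y-linked level as a covariate 11 passed, 2 higher and 9 lower, and Gapdh (-1.02), Pgk1 (-0.92), Eno1 (-0.88), Ldha (-1.11), Slc16a3 (-1.29) and Pdk1 (-0.50) stayed past the threshold. The calls lost with it were those for Egln3 (-1.26, edgeR adjusted p = 0.0919), Pfkfb3 (-1.47), Aldoa (-0.24), Vegfa (-0.24), Pkm (-0.19), Tpi1 (-0.14), Gpi1 (-0.09) and Bnip3 (-0.09).

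The other lists in PWK/PhJ EpiSC are set beside all genes tested, of which 13.7% were higher and 16.1% lower. Of 18 tested glycolysis genes 3 were lower, near that share, and none higher, with Pgm1 at -0.50 ± 0.10. The pentose phosphate genes G6pdx (-0.45 ± 0.06) and H6pd (0.69 ± 0.17) went opposite ways. Of 12 mitochondrial pyruvate genes 4 were lower, with Pdp1 at -0.61 ± 0.13, and G6pc3 was lower by 1.41 ± 0.19 on the log2 scale. Of 19 other hypoxia targets 1 was higher and 4 were lower, with Ddit4 at -1.20 ± 0.39, and none of 7 other HIF pathway genes passed the edgeR test.

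In DE, fewer genes passed for PWK/PhJ against C57BL/6J, both among these 35 and among all genes tested. There 7 of 35 passed, 3 higher and 4 lower. Of 19290 genes tested 17.1% passed, 9.66% higher and 7.47% lower, so 7 in 35 is near the background. Ldha was at 3775, 2735, 3060 and 3847 CPM in lines AC695, AC698, AC699 and AC705 and at 5913, 10622, 6773, 7478 and 6677 CPM in C57BL/6J lines 1, 2, 4, 44 and 5-1, a log2 fold of -1.14 ± 0.21 (edgeR adjusted p = 0.00171) without overlap. The libraries did not overlap for 4 genes that were lower and 1 that was higher, where 7.62% and 10.3% of all genes tested did not. Gapdh was at 1520, 1267, 1495 and 1713 CPM against 3034, 4898, 3074, 3955 and 2976 CPM (-1.25 ± 0.16), and the groups lay far apart. Eno1 was at 2096, 1864, 2362 and 2297 CPM against 4452 to 7225 CPM (-1.37 ± 0.16), and Slc16a3 at 142.2, 75.8, 85.7 and 315.3 CPM against 343.9 to 610.9 CPM (-1.45 ± 0.37). Pgk1, at -0.70 ± 0.32, did not pass (edgeR adjusted p = 0.157), and its log2 fold was -0.44 without C57BL/6J line 2, the highest DE library for that gene.

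Hkdc1, Pfkp and P4ha2 were higher in PWK/PhJ DE. Hkdc1 was at 278.5, 126.9, 38.3 and 74.9 CPM against 17.6, 39.8, 16.4, 39.4 and 3.95 CPM, a log2 fold of 2.50 ± 0.60 with overlapping ranges. Pfkp was at 21.1, 14.9, 22.4 and 30.5 CPM against 3.26 to 17.9 CPM (1.21 ± 0.39), and P4ha2 at 20.3, 27.7, 25.7 and 32.1 CPM against 5.37 to 20.0 CPM (1.22 ± 0.31). The Pfkp call was lost in 8 alternatives, among them the fits without PWK/PhJ line AC695, AC699 or AC705 and without C57BL/6J line 1, 2, 4 or 5-1. Fibroblast markers summed to 283.3 to 662.5 CPM in PWK/PhJ DE and 159.2 to 413.2 CPM in C57BL/6J DE, and with that level as a covariate 4 genes passed, the calls for Slc16a3 (-1.14), Pfkp and P4ha2 (0.62) being lost. Y-linked genes summed to 6.21 CPM in PWK/PhJ DE line AC699 and to 236.8 to 318.4 CPM in the other PWK/PhJ DE lines. In C57BL/6J DE they summed to 73.4 to 255.9 CPM. Of the other lists, G6pc3 was lower by 2.54 ± 0.25, Pgm1 was higher (1.15 ± 0.18) and Pgm2 lower (-1.11 ± 0.33). Lox (3.68 ± 1.03), Pck2 (0.78 ± 0.19) and Taldo1 (0.67 ± 0.16) were also higher. Pdp1 (-1.01 ± 0.23) and Higd1a (-0.84 ± 0.27) were also lower.

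Whether PWK/PhJ differed from C57BL/6J by another amount in DE than in EpiSC was tested in a model of its own. For Ldha it was 0.12 ± 0.27 and for Gapdh -0.04 ± 0.20 (SE, log2), neither past the threshold. Slc16a1 (1.02 ± 0.27, edgeR adjusted p = 0.0221) and Pfkp (1.69 ± 0.51, edgeR adjusted p = 0.0455) were the 2 of 35 that passed, both higher, where 6.67% of 20907 genes did, 3.97% higher and 2.7% lower. Slc16a1 was at 217.0, 198.6 and 202.0 CPM in PWK/PhJ EpiSC and 382.1 to 611.9 CPM in PWK/PhJ DE, against 227.9 to 323.4 and 214.5 to 472.7 CPM in C57BL/6J. Neither gene passed with the cell line as a replicate block (0.91 and 1.75), and over all alternatives, most of which left out 1 library, the call was lost in 7 for Slc16a1 and in 15 for Pfkp.

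**Figure D4:**
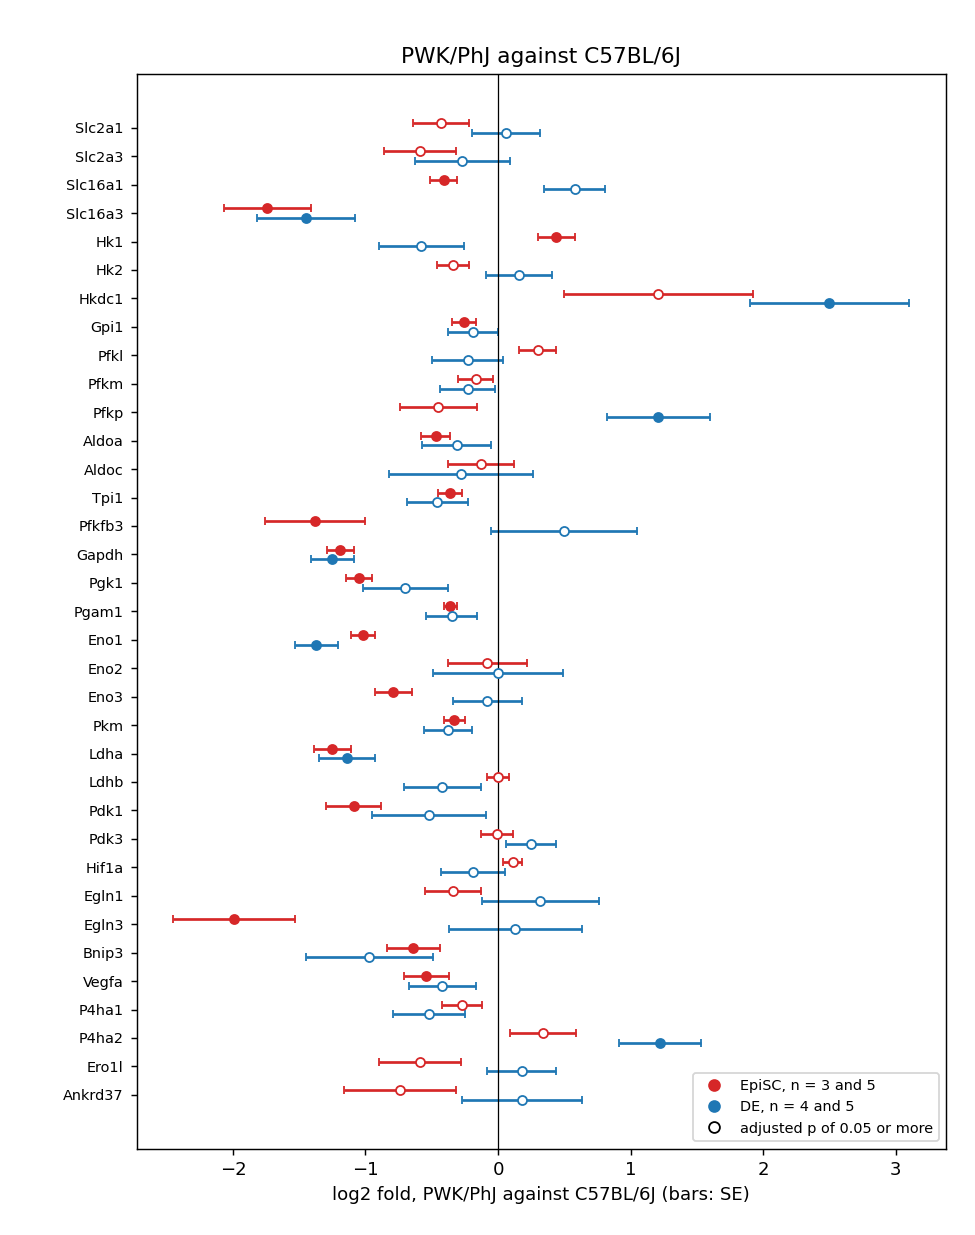
Points are log2 folds of PWK/PhJ against C57BL/6J for the 35 genes, in EpiSC (red, n = 3 and 5) and in DE (blue, n = 4 and 5), with bars of 1 SE; open points have an adjusted p of 0.05 or more. Gapdh, Eno1, Ldha and Slc16a3 lie below -1 with filled points in both cell types, and Hkdc1 lies farthest to the right at 2.50 in DE.

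Other strains differed from C57BL/6J in subsets of these genes that partly overlapped. In EpiSC an F test over the 5 strains with replicate lines in EpiSC and DE alike passed for 17 of 35 genes, where 40% of genes tested passed. CAST/EiJ had 14 genes past the threshold (31.6% of all genes, 14.5% higher and 17.1% lower), 3 higher and 11 lower, and 5 without line WM080 or 7 without WM078. Its lines WM078 and WM080 held Pfkm at 49.9 and 49.1 CPM against 92.6 to 135.4 CPM (-1.08 ± 0.16), Pgam1 at -0.58 ± 0.06, Eno1 at -0.66 ± 0.10 and Egln3 at -2.13 ± 0.55, while Ldha (-0.14 ± 0.15) did not pass. Eno3 (-0.87 ± 0.17), Pfkp (-1.10 ± 0.35), Pfkfb3 (-1.28 ± 0.44), Hk2 (-0.48 ± 0.14), Gpi1 (-0.47 ± 0.10), Pgk1 (-0.47 ± 0.12) and Gapdh (-0.39 ± 0.11) were lower in CAST/EiJ as well. Hkdc1, at 4.29 and 4.23 CPM against 0 to 1.3 CPM (2.82 ± 0.75), Hk1 (0.70 ± 0.15) and Ldhb (0.30 ± 0.09) were higher in CAST/EiJ EpiSC. The endoderm markers summed to 952.4 and 1169 CPM in those libraries and to 31.8 to 330.5 CPM in C57BL/6J EpiSC. Their part in these differences was not tested.

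NOD/ShiLtJ EpiSC had 5 genes past the threshold (12.9% of all genes, 5.98% higher and 6.94% lower), with Vegfa at 47.5 and 55.5 CPM against 102.9 to 164.8 CPM (-1.27 ± 0.20), Pdk1 at -1.30 ± 0.25, Ldhb at -0.55 ± 0.10 and Gapdh at -0.48 ± 0.11, and Hif1a higher by 0.25 ± 0.08. NZO/HiLtJ EpiSC had 3 (5.52% of all genes, 2.7% higher and 2.82% lower), namely Pdk1 at 37.6 and 30.1 CPM against 66.1 to 138.1 CPM (-1.49 ± 0.25), Gapdh (-0.48 ± 0.11) and Ldhb (-0.44 ± 0.10). WSB/EiJ EpiSC had 6 (7.41% of all genes, 3.45% higher and 3.96% lower), with Gpi1 at -0.60 ± 0.10, Ldhb at -0.48 ± 0.10, Pgk1 at -0.44 ± 0.12, Gapdh at -0.42 ± 0.11 and Pgam1 at -0.22 ± 0.06, and Eno2 higher by 1.29 ± 0.32. Gapdh was thus lower than in C57BL/6J in 5 of 5 strains tested in EpiSC, and these contrasts share the C57BL/6J libraries. With the Y-linked level as a covariate the Gapdh call was lost in NOD/ShiLtJ (-0.29), NZO/HiLtJ (-0.35) and WSB/EiJ (-0.31). In EpiSC the Y-linked genes summed to 310.9 and 316.9 CPM in NOD/ShiLtJ and to 227.4 and 240.1 CPM in NZO/HiLtJ. They summed to 211.2 and 224.5 CPM in WSB/EiJ and to 42.2 to 225.5 CPM in C57BL/6J. These strains lay near or above the highest C57BL/6J library, so that covariate cannot be fully told apart from strain. The Gapdh call was lost in each of the 4 strains with 2 lines when some library was left out. The NOD/ShiLtJ count was 2 without line AC576, 3 without AC595 and 8 without C57BL/6J line 1 or 5-1. The NZO/HiLtJ count was 1 without AC653, 0 without AC671, 5 without C57BL/6J line 2 and 6 without line 1. The WSB/EiJ count was 1 without AC627, 2 without AC635 and 3 without C57BL/6J line 4 or 44, and Eno2 there stood at 35.2 CPM in AC627 and 13 CPM in AC635.

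In DE 11 of 35 genes passed the test over 5 strains (22.2% of all genes), and 7 without PWK/PhJ line AC698 or NOD/ShiLtJ line AC576. NOD/ShiLtJ DE had 6 genes past the threshold (11.4% of all genes, 7.98% higher and 3.37% lower), 5 higher and 1 lower. Vegfa was at 43.3 and 69.9 CPM there, below each C57BL/6J line (210.3 to 278.0 CPM), a log2 fold of -2.14 ± 0.35. Pfkp (2.65 ± 0.45), Eno2 (2.45 ± 0.56), P4ha2 (1.72 ± 0.36), Eno3 (1.08 ± 0.31) and Pdk3 (0.95 ± 0.23) were higher. Endoderm markers summed to 1219 and 3369 CPM in those libraries, against 5677 to 12933 CPM in C57BL/6J DE. Fibroblast markers summed to 1635 and 1923 CPM there and to 159.2 to 413.2 CPM in C57BL/6J DE. These ranges did not overlap, so a covariate of that level cannot be fully told apart from strain. With it the log2 folds were 1.9 for Pfkp, 3.27 for Eno2, 0.53 for P4ha2, 0.85 for Eno3, 0.73 for Pdk3 and -1.43 for Vegfa. With the fibroblast level as a covariate 0 of the 6 genes passed, and Pfkp alone passed without line AC576.

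NZO/HiLtJ DE had 1 gene past the threshold (1.41% of all genes, 0.918% higher and 0.492% lower), Eno2, at 55.0 and 10.8 CPM against 1.94 to 4.71 CPM (3.11 ± 0.56), a call lost without line AC653 (1.52). WSB/EiJ DE had 0 by edgeR (2.28% of all genes, 1.19% higher and 1.09% lower), 5 at an unadjusted p under 0.05, and 1 by DESeq2. The 1 CAST/EiJ DE line, WM078, was not tested, and it held the highest Egln1 (421.4 CPM), Eno2 (87.8 CPM) and Bnip3 (201.3 CPM) of the 17 DE libraries. Across strains Vegfa in DE was therefore lowest in NOD/ShiLtJ, and highest in WSB/EiJ at 449.1 and 371.3 CPM, although the WSB/EiJ contrast did not pass the test.

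**Figure D5:**
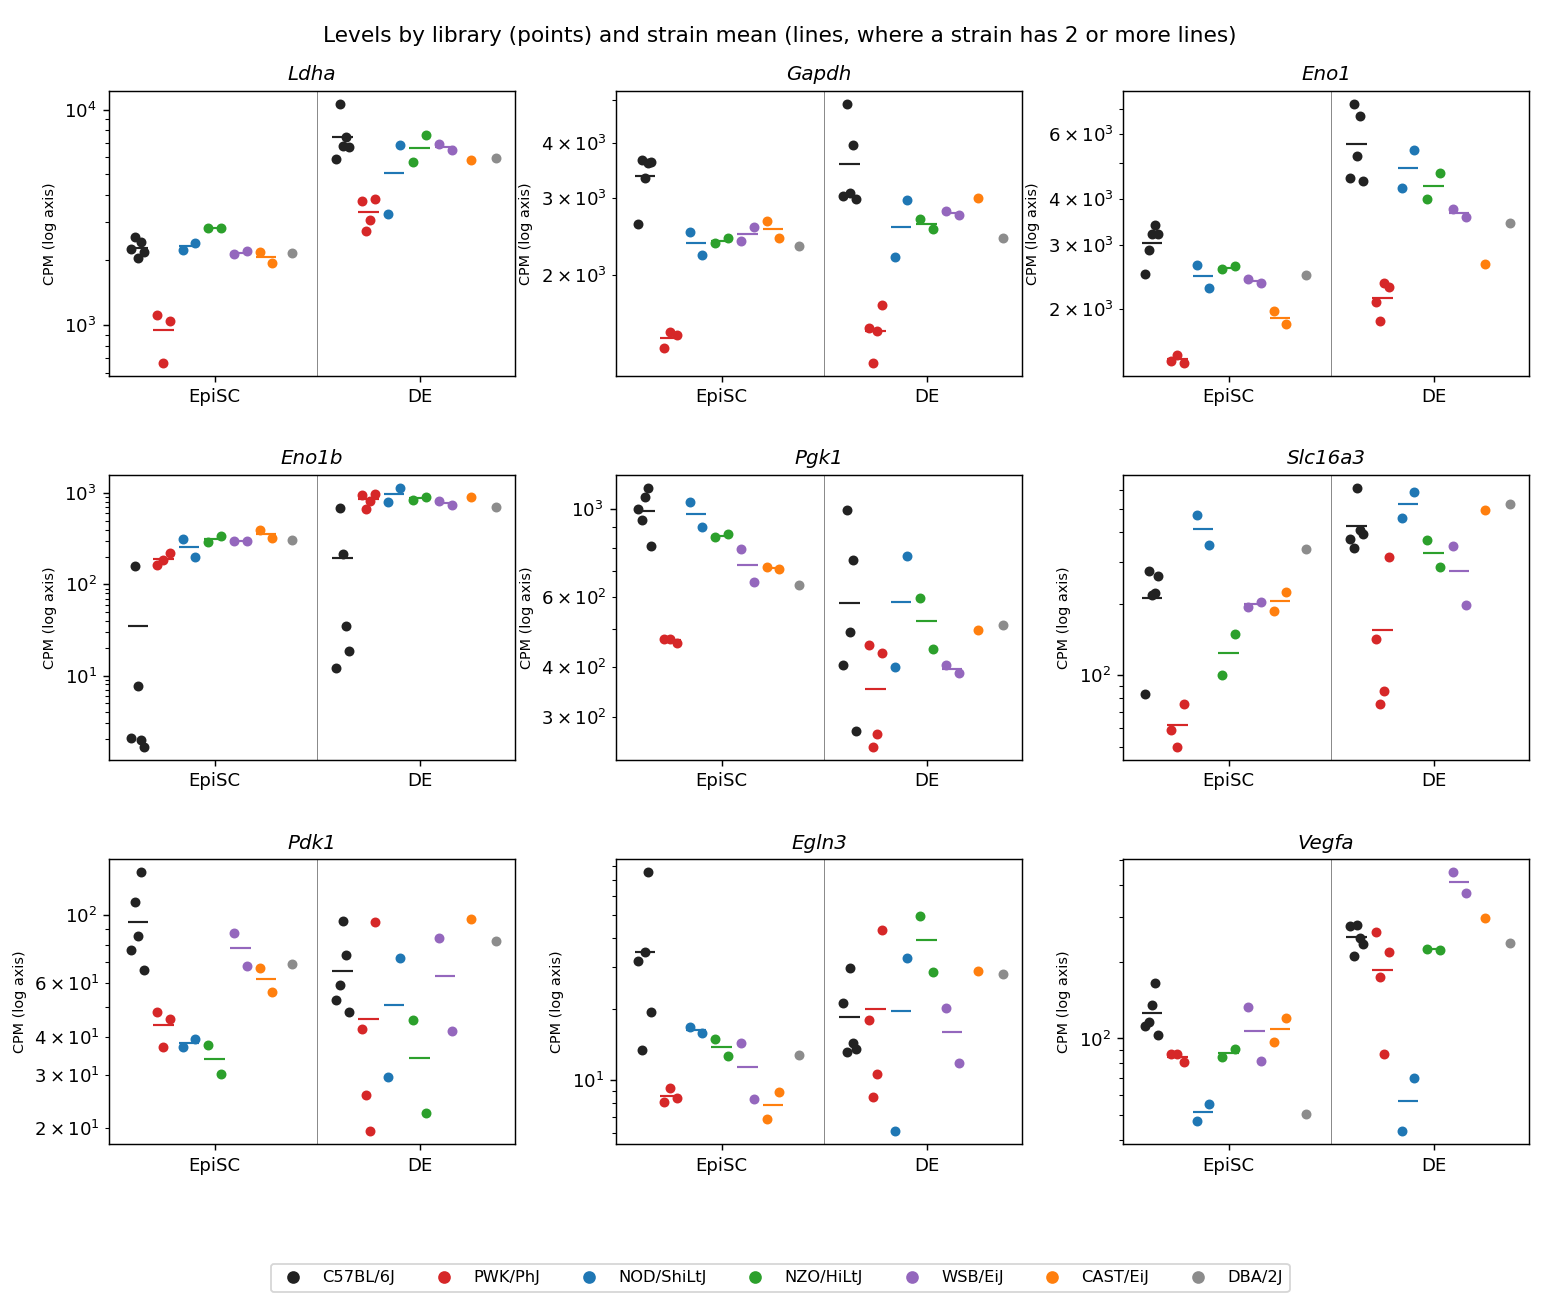
Levels in CPM (log axes, separate for each gene) of 8 genes of the list and of Eno1b, the copy of Eno1, in each library (points) with strain means (short lines, where a strain has 2 or more lines), EpiSC to the left and DE to the right of each grey line. PWK/PhJ lies lowest for Gapdh and Eno1 in both cell types and for Ldha in EpiSC, NOD/ShiLtJ lies lowest for Vegfa in DE, and C57BL/6J holds the lowest Eno1b points with line 2 well above its strain.

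The 5 C57BL/6J lines differed among themselves in EpiSC. Line 44 was the highest of the 5 for 20 of 35 genes, where it was the highest for 11.5% of all genes tested, and line 5-1 was the highest for 0 of 35 and the lowest for 15, where it was so for 21.8% and 24.2% of all genes. Egln3 was at 75.4 CPM in line 44 and 13.4 to 34.6 CPM in the others, Ero1l at 212.2 and 80.9 to 168.1 CPM, Ankrd37 at 7.16 and 1.99 to 3.19 CPM, and Slc2a3 at 902.4 and 375.2 to 771.3 CPM. In DE line 2 was highest for 15 of 35, among them Ldha, Gapdh, Eno1 and Pgk1, where it was highest for 32.3% of all genes tested, and line 5-1 was lowest for 20, where it was lowest for 17.7% of all genes tested. Each line is 1 library per cell type, so these are descriptions with no test.

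A retrogene copy of Eno1, Eno1b (chromosome 18), was the largest of 14 named copies of these genes. It was at 2.05, 159.9, 7.61, 1.95 and 1.65 CPM in C57BL/6J EpiSC lines 1, 2, 4, 44 and 5-1, and at 162.1 to 395.1 CPM in the libraries of the other strains. In DE it was at 12.1, 683.8, 216.9, 35.4 and 18.8 CPM in the same lines, against 680.2 to 1138 CPM elsewhere, so line 2 in both cell types and line 4 in DE stood apart from C57BL/6J lines 1, 44 and 5-1. At this copy the 2 libraries of line 2 were near or within the range of the other strains and line 4 in DE lay between, so whether these libraries are C57BL/6J throughout, as labelled, is in doubt and was not tested. Adding its counts to those of Eno1 left the PWK/PhJ difference at -0.86 in EpiSC and -0.94 in DE, both past the threshold. In CAST/EiJ EpiSC the copy had 17.7% to 20.0% of the counts of Eno1. Eno1 and Eno1b together were at 2260 ± 157.4 CPM there (SD, n = 2), against 3073 ± 341.9 CPM in C57BL/6J EpiSC (SD, n = 5). Without line 2, Ldha was at -1.20 and Gapdh at -1.16 in PWK/PhJ EpiSC, and at -1.0 and -1.12 in DE. Without line 4 in DE, Ldha was at -1.19, Gapdh at -1.31, Eno1 at -1.41 and Slc16a3 at -1.29, each past the threshold; both lines were not left out together in DE. Eno1b counts were 34.9% to 45.8% of those of Eno1 in PWK/PhJ DE and 0.266% to 9.46% in C57BL/6J DE. The other 13 named copies reached at most 1.98% of the counts of their parent gene. Among them, Tpi-rs11 was at 10.6 to 21.6 CPM in PWK/PhJ DE and 0.13 to 0.616 CPM in C57BL/6J DE. Unnamed processed copies were not analysed here, and the handling of reads with several alignments is not given in the sources used here, so levels of Gapdh, Eno1, Pgk1, Tpi1, Pgam1, Aldoa and Ldha are uncertain to that extent.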

How the data were processed

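RNA-seq was deposited by the authors as whole-number counts of reads per gene, not normalised. Per the submitters' processing notes, STAR 2.4, HTSeq 0.6.1, DESeq2 (no version) and the build mm10 were used; annotation release, strand setting and multi-mapping rule are unstated there. Totals ran from 23772045 to 67722013 counts per library; reads copied by PCR, with no molecular identifiers, are no independent count of molecules. Each library is 1 cell line, and nothing in the labels says whether lines came from separate animals. The 35 genes and all lists were chosen with earlier results of these data known. Tests used edgeR 4.0.16 under R 4.3.3 (robust quasi-likelihood F test after TMM scaling; at least 10 counts in at least 3 libraries, Benjamini-Hochberg over all genes tested, threshold 0.05), checked on simulated data. All 34 libraries entered the cell type contrast, which had a strain term, and 17 each strain contrast, so strains share 1 estimate of spread. CPM used TMM-scaled totals; log2 CPM used a prior count of 2. Alternatives were RLE scaling, no filter, no strain term, fibroblast and Y-linked covariates, DESeq2 1.42.0, a replicate block and each library left out; 2 were added after seeing the data, namely summing Eno1 with Eno1b and leaving out both libraries of C57BL/6J line 2.

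All genes of the list that passed are named; of each other list, the called gene with the largest log2 fold in each direction and a mean log2 CPM of at least 3. Libraries of 16 lines exist in both cell types, and the line pairs them by origin; over 14 lines in strains with replicates, deviations from group means correlated with r from 0.004 to 0.147 (median 0.036, over 0.1 in 6). No replicate pair was a duplicate within sampling noise (lowest chi-square per degree of freedom 6.58 in EpiSC and 31.5 in DE). Positions are GRCm38 from GENCODE M21, and promoter windows are from RefSeq (GRCm38.p6), matched for 34 of 35 genes, with Ero1l matched as Ero1a.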

Additional observations from a re-analysis of the deposited data

Results flagged for a closer look

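Within C57BL/6J, 5 values stood far from the other lines of their group by Dixon's test, which chance gives in about 1 in 20 groups (105 groups were tested, so 5.25 by chance). In EpiSC line 1 was low for Slc16a3 (6.38 log2 CPM, others 7.76 to 8.10), Gapdh (11.36, others 11.70 to 11.83) and Pkm (11.66, others 12.00 to 12.04). In DE line 44 was high for Pfkm (5.67, others 4.63 to 4.88), and line 5-1 was low for Eno2 (1.00, others 2.08 to 2.25). Line 1 EpiSC also held the lowest fibroblast marker level of its group, 158.8 CPM against up to 3851 CPM, and its part in these values was not tested. In the fit without a replicate block, the PWK/PhJ effect differed between DE and EpiSC for Slc16a1 by 1.02 and for Pfkp by 1.69 on the log2 scale (edgeR adjusted p = 0.0221 and 0.0455). Both calls were lost with the cell line as a replicate block (0.91 and 1.75), and over all alternatives in 7 for Slc16a1 and 15 for Pfkp.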

How the results depend on the processing

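The count of genes past the threshold for DE against EpiSC stayed between 25 and 28 with each library left out, and at 25 or 26 under the other alternatives. With the cell line as a replicate block it was 25, and the test of whether PWK/PhJ differed by another amount in DE went from 2 genes to 0 (1 with RLE scaling, 6 with no filter, 0 to 3 with a library left out). The Y-linked covariate left 11 genes in PWK/PhJ EpiSC, 2 in NOD/ShiLtJ EpiSC and 2 in WSB/EiJ EpiSC. The fibroblast covariate left 4 in PWK/PhJ DE, 0 in NOD/ShiLtJ DE and 7 over the 5 strains in DE. With no filter there were 11 in PWK/PhJ DE, 8 in NZO/HiLtJ DE, 4 in WSB/EiJ DE and 23 over the 5 strains in DE. DESeq2 gave 6 in NZO/HiLtJ EpiSC, 2 in NZO/HiLtJ DE and 1 in WSB/EiJ DE. With a library left out the counts ran from 12 to 19 in PWK/PhJ EpiSC, 5 to 16 in CAST/EiJ, 2 to 8 in NOD/ShiLtJ, 0 to 6 in NZO/HiLtJ and 1 to 7 in WSB/EiJ EpiSC. In DE they ran from 6 to 7 in PWK/PhJ, 1 to 6 in NOD/ShiLtJ, 0 to 2 in NZO/HiLtJ, 0 to 1 in WSB/EiJ and 7 to 13 over the 5 strains. Over all genes, NOD/ShiLtJ DE went from 2190 genes past the threshold to 28 with the fibroblast covariate, NOD/ShiLtJ EpiSC from 2309 to 842 with the Y-linked covariate, and NZO/HiLtJ EpiSC from 986 to 1817 with DESeq2. Causes of these shifts were not tested. In NOD/ShiLtJ, the fibroblast level in DE and the Y-linked level in EpiSC did not overlap those of C57BL/6J. No called log2 fold or ratio changed sign under any alternative run. Strains with 2 lines rest on few libraries, and Hkdc1 in EpiSC, with 498 counts in all, is limited by depth.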
